A study of Mus musculus with 16 samples.

Results

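Genes of the cytotoxic programme were followed across memory CD4+ T cells that lack HP1a or HP1g and their wild-type (WT) controls. The set comprised 10 of the 56748 genes of the tables, taken by symbol: the granzymes Gzma, Gzmb and Gzmk, the pore protein Prf1, the granule genes Nkg7 and Ctsw, the death ligand Fasl and the CC chemokines Ccl3, Ccl4 and Ccl5. All 10 passed the filter on low counts, as did 15776 genes in all over the 16 samples. RNA was sequenced from splenic memory T cells (Tmem, sorted as CD4+CD25low/-CD62L-CD44high) in 4 samples each of HP1a KO, HP1a WT, HP1g KO and HP1g WT mice. Wild-type and mutant littermates were sex-matched and 6 to 12 weeks old, and both lines had mixed ancestry from 129/Sv and C57BL/6. In the HP1a line, floxed Hp1a had been excised by way of CMV-cre, and Hp1a+/- mice were intercrossed to give the KO and the Hp1a+/+ controls. In the HP1g line, KO and WT mice both carried the floxed Hp1g allele in homozygous form, and the KO also carried Cd4-cre, which is switched on in T cells as they develop in the thymus. Cre and the loss of HP1g could therefore not be told apart, and the HP1a and HP1g lines differed in their breeding as well as in their allele. Nothing in the labels says that the 4 samples of a group came from separate animals, so that p-values measure the spread between these samples.

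HP1 proteins bind histone H3 methylated at lysine 9 and take part in keeping genes in silent chromatin. Cytotoxic lymphocytes store granzymes, which are serine proteases, together with perforin in secretory granules. On contact with a target cell the granules are released, perforin forms pores and granzymes enter the target and start cell death. Fas ligand kills by a separate route, through the receptor Fas, and CCL3, CCL4 and CCL5 are secreted chemokines that recruit other leukocytes. This programme is best known in CD8+ T cells and NK cells, but a fraction of memory CD4+ T cells also expresses parts of it, with CCL5 and NKG7 being common in memory T cells.

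Total counts ranged from 26694045 to 40199637 per sample. Cbx5, which encodes HP1a, was lower in HP1a KO than in HP1a WT (23.0 to 29.0 against 33.8 to 54.0 CPM, counts scaled to library size after TMM normalization over the 16 samples), and Cbx3, which encodes HP1g, was lower in HP1g KO than in HP1g WT (45.9 to 50.3 against 73.4 to 92.5 CPM). In the HP1g line, Cbx5 was at 20.1 to 29.8 CPM in KO and 27.1 to 37.4 CPM in WT, so that low Cbx5 was not particular to HP1a KO. The edgeR test described below called 0 of the 14881 genes between HP1a KO and WT, so Cbx5 itself did not pass it. The tables hold totals per gene, so that the deleted exons were not seen on their own. The cells expressed Cd4 at 1015 to 1370 CPM and Cd44, while Cd8a stayed between 0.541 and 7.39 CPM and Ncr1, the defining receptor of NK cells, between 0.0648 and 0.379 CPM (2 to 14 counts). Foxp3 was present at 57.6 to 164 CPM. In these bulk samples, fewer cells that express a gene and less of its RNA per cell could not be told apart.

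On GRCm39, Gzma and Gzmk lay 70.6 kb apart on chromosome 13 with 0 protein-coding genes between them, Ccl3 and Ccl4 lay 13.2 kb apart on chromosome 11 with 0 between them, and Ccl5 lay on the same chromosome, 113 kb from Ccl3. Fasl spanned 161608258 to 161616075 on the minus strand of chromosome 1 with 4 exons, Gzmb spanned 56496295 to 56499717 on the minus strand of chromosome 14 with 5 exons, and Nkg7 spanned 43086497 to 43087678 on the plus strand of chromosome 7 with 4 exons. Gzmk, Ctsw, Ccl3 and Ccl5 overlapped a gene on the opposite strand (Esm1 and Gm59720, Fibp, Gm53692 and Gm73713). The canonical transcript of each of the 10 genes shared at least 150 bases at 98% identity with 0 other genes.

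The bases just upstream of the start are shown for 3 of the genes: Fasl, the 1 gene that differed between the WT groups, and Gzmb and Nkg7, a granzyme and the most abundant granule gene, which did not pass that test. They are the 250 bases before the transcription start that RefSeq gives on GRCm38.p6, at chr1:161788496-161788745 (minus strand), chr14:56262335-56262584 (minus strand) and chr7:43436888-43437137 (plus strand), written 5′ to 3′ along the gene. Capitals mark matches to 5 short motifs searched on both strands.
Fasl: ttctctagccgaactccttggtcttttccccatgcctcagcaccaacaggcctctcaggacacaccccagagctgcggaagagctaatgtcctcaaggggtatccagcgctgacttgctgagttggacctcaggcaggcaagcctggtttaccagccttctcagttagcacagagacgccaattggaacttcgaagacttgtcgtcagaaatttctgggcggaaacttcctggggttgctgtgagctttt
Gzmb: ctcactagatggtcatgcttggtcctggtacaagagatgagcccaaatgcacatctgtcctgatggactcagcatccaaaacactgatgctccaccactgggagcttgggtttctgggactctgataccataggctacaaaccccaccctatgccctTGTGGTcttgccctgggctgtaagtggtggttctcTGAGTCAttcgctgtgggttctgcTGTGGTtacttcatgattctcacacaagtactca
Nkg7: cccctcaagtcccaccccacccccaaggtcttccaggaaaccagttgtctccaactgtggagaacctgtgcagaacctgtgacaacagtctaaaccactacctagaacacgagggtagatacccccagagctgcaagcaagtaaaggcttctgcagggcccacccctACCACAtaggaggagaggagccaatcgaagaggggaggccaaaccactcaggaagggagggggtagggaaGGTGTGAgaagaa
The Gzmb promoter held the RUNX motif TGTGGT starting 93 and 34 bases before the start and the AP-1 motif TGANTCA starting 58 bases before it. The Nkg7 promoter held the T-box motif GGTGTGA 13 bases before the start and a RUNX motif on the opposite strand 83 bases before it. The letters of these motifs, of the CRE core motif TGACGT and of the TATA box TATAAA were not in the Fasl window. RefSeq promoters were matched for 7 of the 10 genes, and a RUNX motif stood in 5 of these 7 and in 14% of all 32851 promoters. A T-box motif stood in 2 of 7 and in 3.33%, and an AP-1 motif in 1 of 7 and in 6.75%. A CRE core motif stood in 1 of 7 and in 6.47%, and the letters TATAAA in 0 of 7 and in 12.4%. Only these exact letters were counted, and the Gzma window holds TATATAAG, a variant that was not searched. The motifs did not overlap in these windows. The matches describe letters only, and binding was not measured in these samples.

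The genes fell into a high and a low tier. Compared per transcript length, Ccl5 was the most abundant with a mean of 966 TPM (deposited values scaled by transcript length and library size, over 16 samples), followed by Nkg7, which serves in granule exocytosis, at 237 TPM. Ctsw, a cysteine protease of cytotoxic lymphocytes, had a mean of 144 TPM and Fasl of 60.0 TPM. These 4 genes kept this order in all 4 groups, and within each group the samples of neighbours in this order did not overlap. Below Fasl, mean TPM was 15.1 for Gzmb, 12.8 for Gzmk, 9.0 for Ccl4, 8.04 for Gzma, 7.36 for Prf1 and 7.36 for Ccl3. All neighbours in this lower part overlapped in their samples, and their order changed from group to group.

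**Figure D1:**
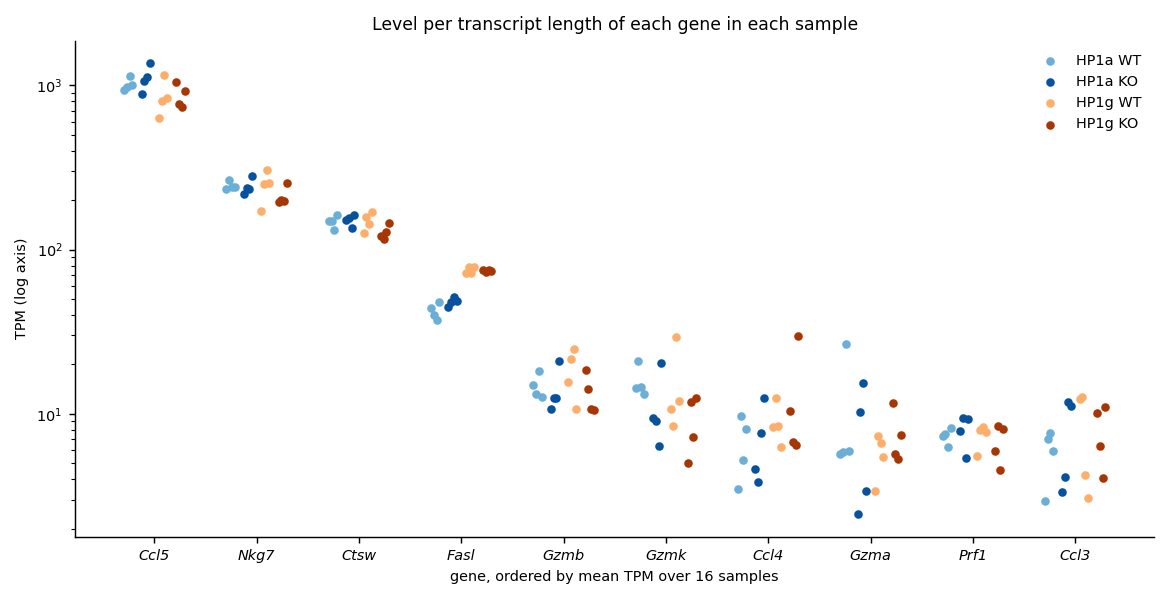
Level of each gene in each of the 16 samples as deposited TPM on a log axis, coloured by group, with genes ordered by their mean TPM. Ccl5, Nkg7, Ctsw and Fasl stand apart from each other and from 6 genes whose samples overlap, and Fasl alone among the upper 4 splits by line (37.3 to 51.8 TPM in HP1a samples, 72.0 to 78.6 TPM in HP1g samples).

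The spread between samples of 1 group differed from gene to gene. The coefficient of variation of the CPM within a group was at most 10.8% for Ctsw, 11% for Fasl, 18.7% for Nkg7 and 20.7% for Ccl5. Of the lower tier, Prf1 (11.2% to 25.1%) and Gzmb (20.7% to 32.3%) came near these values. Gzmk reached 58.6%. The coefficient reached 98.9% for Gzma, 83.3% for Ccl4 and 65.9% for Ccl3, genes whose counts went down to 46, 36 and 37 in a sample. Single samples made up much of this spread. Gzma was at 13.3 CPM in HP1a WT replicate 3 and at 2.65 to 2.84 CPM in the other HP1a WT samples, and Ccl4 was at 9.34 CPM in HP1g KO replicate 4 and at 2.06 to 3.26 CPM in the other HP1g KO samples.

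**Figure D2:**
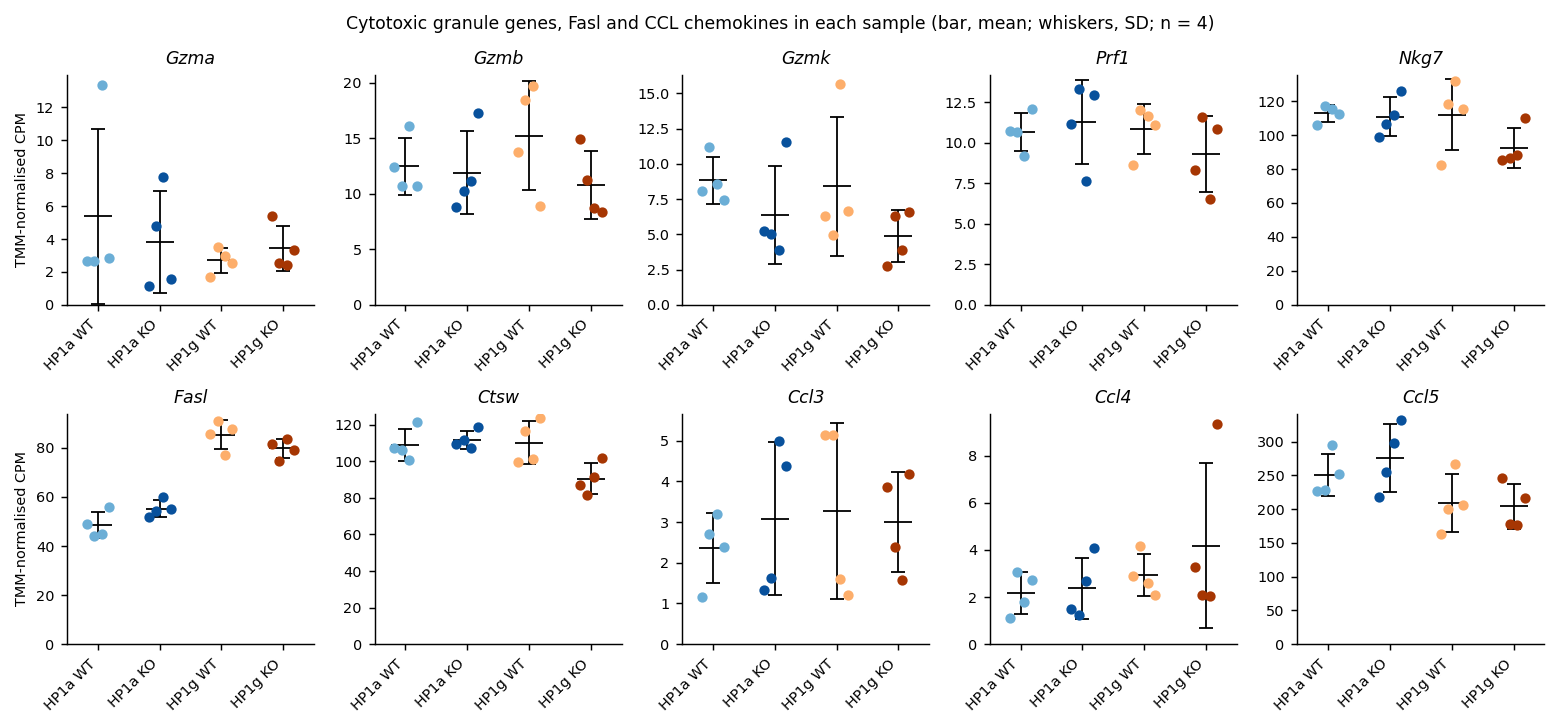
TMM-normalised CPM of each gene in each sample by group, with the mean as a bar and the SD as whiskers (n = 4), axes starting at 0. KO and WT samples of the same line overlap in every panel, and the HP1a samples of Fasl (44.2 to 60.1 CPM) all lie below the HP1g samples (74.9 to 91.1 CPM).

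The first comparison asked whether loss of HP1a altered the cytotoxic genes in memory cells. None of the 10 genes passed the test (0 of 10, edgeR quasi-likelihood test with Benjamini-Hochberg adjustment, adjusted p under 0.05), beside 0.0% of the 14881 genes tested, and KO and WT samples overlapped for each of them, while they did not overlap for 2.96% of all genes. At an unadjusted p under 0.05, 1 of the 10 passed, beside 4.27% of all genes. DESeq2 also called 0 of the 10. The median log2 fold change of the 10 was 0.06, beside 0.00 over all genes, with 6 positive and 4 negative values.

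Among the granule genes, Nkg7 and Ctsw had the narrowest intervals. Nkg7 stood at 99.2, 106, 112 and 126 CPM in the HP1a KO samples and at 106, 117, 116 and 112 CPM in HP1a WT. The KO range enclosed the WT range, and the log2 fold change was -0.03 (SE 0.07, 95% confidence interval -0.19 to 0.14, edgeR adjusted p = 0.981). Ctsw was at 109, 112, 107 and 119 CPM in KO and at 108, 106, 101 and 121 CPM in WT. Both groups covered nearly the same range, and the difference was 0.04 on the log2 scale (interval -0.11 to 0.18). The granzymes and perforin were less well determined. Gzmb was at 8.86 to 17.3 CPM in KO and 10.7 to 16.2 CPM in WT (log2 fold change -0.07, interval -0.53 to 0.40), and Prf1 at 7.65 to 13.3 and 9.18 to 12.1 CPM (0.08, interval -0.29 to 0.45). Gzmk was at 5.20, 4.99, 3.86 and 11.5 CPM in KO and at 8.06, 11.2, 8.60 and 7.45 CPM in WT, so that 3 KO samples lay below all WT samples and the fourth above them (-0.46, interval -1.14 to 0.21). Gzma had a log2 fold change of -0.49 with an interval from -2.02 to 1.05, and the value was 0.48 without HP1a WT replicate 3.

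Fasl was the gene with the unadjusted p under 0.05. It was at 51.7, 54.2, 60.1 and 55.0 CPM in HP1a KO and at 48.8, 44.2, 44.9 and 55.8 CPM in HP1a WT. The groups overlapped through WT replicate 4, and the log2 fold change was 0.19 (SE 0.08, interval 0.00 to 0.38, edgeR adjusted p = 0.946). The chemokines did not pass either. Ccl5 was at 218 to 333 CPM in KO and 227 to 295 CPM in WT (log2 fold change 0.14, interval -0.15 to 0.42), while the intervals of Ccl3 (-0.62 to 1.39) and Ccl4 (-0.79 to 1.04) spanned changes in both directions.

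The second comparison asked the same of HP1g. Again none of the 10 genes passed the test (0 of 10, edgeR), beside 0.327% of the 14975 genes tested, and KO and WT samples overlapped for each, while they did not overlap for 7.1% of all genes. Of the 10, 1 passed at an unadjusted p under 0.05, beside 11.9% of all genes, and DESeq2 called 0. The log2 fold changes were negative for 8 of the 10 genes, with a median of -0.16 beside 0.00 over all genes. Ccl3 and Ccl5 among them were positive with limma on log2(TPM + 1), at 0.091 and 0.0436, and Ccl3 was positive at 0.018 in the fit blocked by replicate number.

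Ctsw had the smallest p. It was at 87.2, 81.5, 91.7 and 102 CPM in HP1g KO and at 99.4, 117, 101 and 124 CPM in HP1g WT. Only KO replicate 4 reached into the WT range, and the log2 fold change was -0.28 (SE 0.09, interval -0.48 to -0.07, edgeR adjusted p = 0.331). Nkg7 showed a like arrangement, with 85.5, 86.3, 88.2 and 110 CPM in KO and 82.6, 118, 132 and 116 CPM in WT. Here 3 of the WT samples lay above all KO samples and WT replicate 1 below them (log2 fold change -0.27, interval -0.58 to 0.04, adjusted p = 0.475). Gzmk was at 2.73, 6.30, 3.89 and 6.57 CPM in KO and at 6.29, 4.92, 15.7 and 6.69 CPM in WT. Its log2 fold change of -0.77 (interval -1.63 to 0.09) rested in large part on WT replicate 3, without which it was -0.27. Gzmb was at 15.0, 11.2, 8.69 and 8.39 CPM in KO and at 13.8, 18.5, 19.7 and 8.94 CPM in WT (-0.49, interval -1.06 to 0.08), and Prf1 had a log2 fold change of -0.21 (interval -0.62 to 0.21). Gzma gave 0.35 (interval -0.32 to 1.02).

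Fasl was close to level in this line, at 81.6, 74.9, 83.6 and 79.2 CPM in HP1g KO and at 85.8, 91.1, 76.9 and 87.9 CPM in HP1g WT. The log2 fold change was -0.09 (interval -0.24 to 0.06, adjusted p = 0.618), the narrowest interval of the 10 genes. Ccl5 was at 246, 177, 176 and 216 CPM in KO and 163, 200, 267 and 206 CPM in WT, and the KO samples lay within the WT range (-0.03, interval -0.37 to 0.32). Ccl4 had a log2 fold change of 0.53 (interval -0.52 to 1.57), which was -0.25 without HP1g KO replicate 4. Ccl3 had a log2 fold change of -0.12 (interval -1.20 to 0.97).

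**Figure D3:**
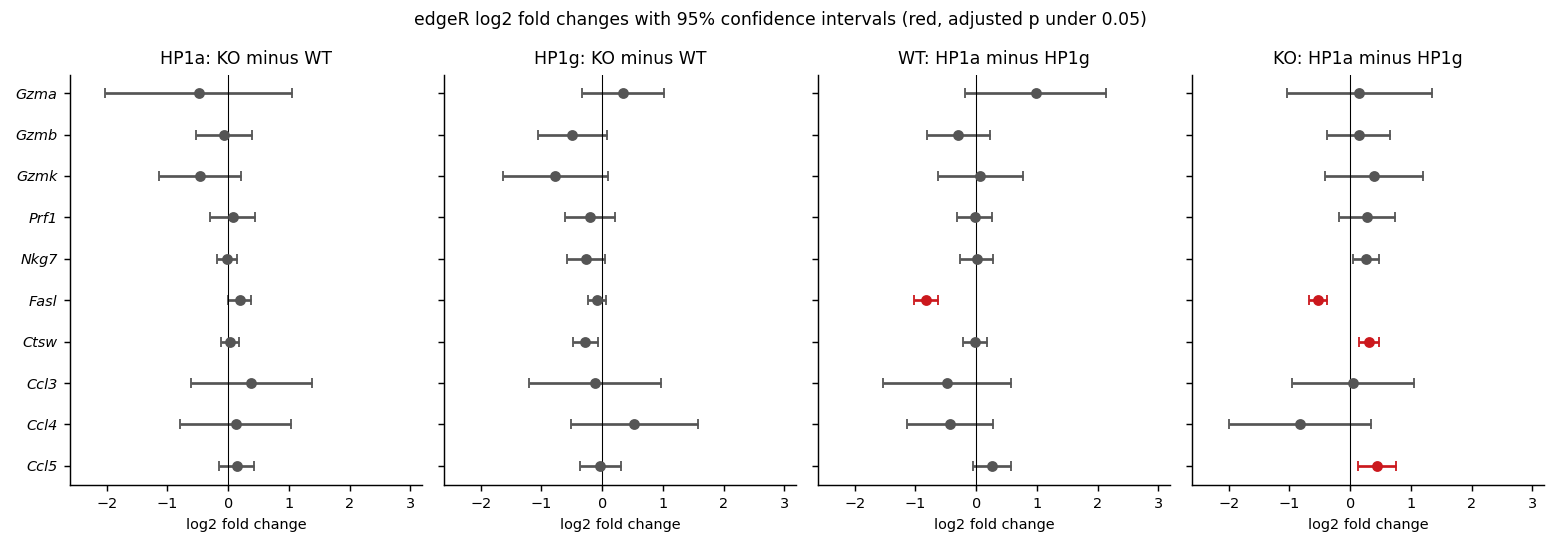
edgeR log2 fold changes with 95% confidence intervals for the 10 genes in 4 comparisons, red where the adjusted p was under 0.05. The KO and WT panels hold 0 red points, and Fasl is red in both panels that compare the lines, at -0.82 and -0.53.

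The effects of both knockouts were also compared with each other as an interaction over all 16 samples. None of the 10 genes passed (0 of 10, edgeR), beside 0.0507% of the 15776 genes tested. At an unadjusted p under 0.05, 2 of the 10 passed, beside 9.58% of all genes, and DESeq2 called 0 of the 10. These were Ctsw (effect in HP1a minus effect in HP1g 0.32, SE 0.12, interval 0.07 to 0.57, edgeR adjusted p = 0.44) and Fasl (0.29, SE 0.11, interval 0.06 to 0.52, edgeR adjusted p = 0.44).

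The WT groups of the lines were then compared, which shows how far the cytotoxic genes differ between controls. Fasl passed the test, 1 of the 10 genes, beside 12.8% of the 14804 genes tested, and 8.25% of them were lower in HP1a WT as Fasl was, so that the count was near the share over all genes. That share depended on single libraries, as the 1896 genes called fell to 573 without HP1a WT replicate 1, 613 and 626 without HP1g WT replicates 1 and 2, 1101 and 1040 without HP1a WT replicates 2 and 4, and 577 in the fit blocked by replicate number, while Fasl passed in each of these. Fasl was at 48.8, 44.2, 44.9 and 55.8 CPM in HP1a WT and at 85.8, 91.1, 76.9 and 87.9 CPM in HP1g WT. The groups did not overlap, as was so for 19.5% of all genes (10.7% with HP1a WT lower), and Fasl was 1.77-fold higher in HP1g WT (log2 fold change HP1a minus HP1g -0.82, SE 0.09, interval -1.02 to -0.62, edgeR adjusted p = 0.00139). The other members did not pass. Nkg7, Ctsw and Prf1 had log2 fold changes of 0.01, -0.02 and -0.03, with intervals from -0.26 to 0.28, from -0.21 to 0.18 and from -0.32 to 0.26. Ccl5 was at 227 to 295 CPM in HP1a WT and 163 to 267 CPM in HP1g WT (0.26, interval -0.06 to 0.57, adjusted p = 0.253). Gzma had the highest log2 fold change, 0.98 (interval -0.18 to 2.14), and without HP1a WT replicate 3 it was 0.0044. Gzmb (-0.29), Gzmk (0.07), Ccl3 (-0.48) and Ccl4 (-0.43) had intervals that included 0.

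The KO groups of the lines, in which no sample is shared with the WT groups, were compared after the values had been seen. Fasl, Ctsw and Ccl5 passed, 3 of the 10 genes, beside 32.8% of the 15020 genes tested, again near the share over all genes. Fasl was lower in HP1a KO (51.7 to 60.1 CPM) than in HP1g KO (74.9 to 83.6 CPM), without overlap (log2 fold change -0.53, SE 0.07, edgeR adjusted p = 0.00104). Ctsw was higher in HP1a KO (107 to 119 CPM) than in HP1g KO (81.5 to 102 CPM), also without overlap, as was so for 32.3% of all genes (0.31, SE 0.07, adjusted p = 0.0107). Ccl5 was higher in HP1a KO (218 to 333 CPM) than in HP1g KO (176 to 246 CPM), with overlapping samples (0.44, SE 0.14, adjusted p = 0.0377). Ctsw did not pass on limma with log2(TPM + 1) (adjusted p = 0.0554), and Ccl5 did not pass there (adjusted p = 0.102), with the replicate number as a block (0.0646) or when any of HP1a KO replicates 2, 3 and 4 or HP1g KO replicates 2 and 3 was left out (adjusted p 0.0542 to 0.104). Nkg7 had a log2 fold change of 0.26 (adjusted p = 0.0623) and passed on DESeq2 (adjusted p = 0.0400), without the filter (0.0477), with the replicate number as a block (0.0219) and without HP1g KO replicate 4 (0.36, adjusted p = 0.0102). That Ctsw and Ccl5 passed between the KO groups and not between the WT groups was not a difference that passed its own test, the interaction given before for Ctsw and 0.17 (adjusted p = 0.868) for Ccl5.

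Because Fasl was the gene that separated the lines, the tested genes within 1 Mb of it on chromosome 1 were described, a choice made after its values were seen. Between the WT groups, 4 of 18 neighbours were lower and 1 was higher in HP1a WT, beside 12.8% of all genes called and 8.25% lower. Suco, 27.6 kb away, was at a mean of 168 CPM in HP1a WT and 265 CPM in HP1g WT (log2 fold change -0.66, SE 0.07), and Tnfsf4, which encodes the costimulatory ligand OX40L and belongs to the same cytokine family as Fasl, was at 0.555 and 2.23 CPM (-2.02, SE 0.39). Klhl20 was the gene that was higher in HP1a WT (0.62, SE 0.15). Between the KO groups, 6 of 19 neighbours were lower and 2 higher in HP1a KO, beside 32.8% of all genes called, among them again Suco (-0.86), Tnfsf4 (-2.42) and Klhl20 (0.64) in the same directions. Gm37357, 22.5 kb away, and Gm15429, 53.2 kb away, did not pass in either comparison. The lines differ in allele, Cre and breeding, and these could not be told apart as the source of a difference between lines.

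**Figure D4:**
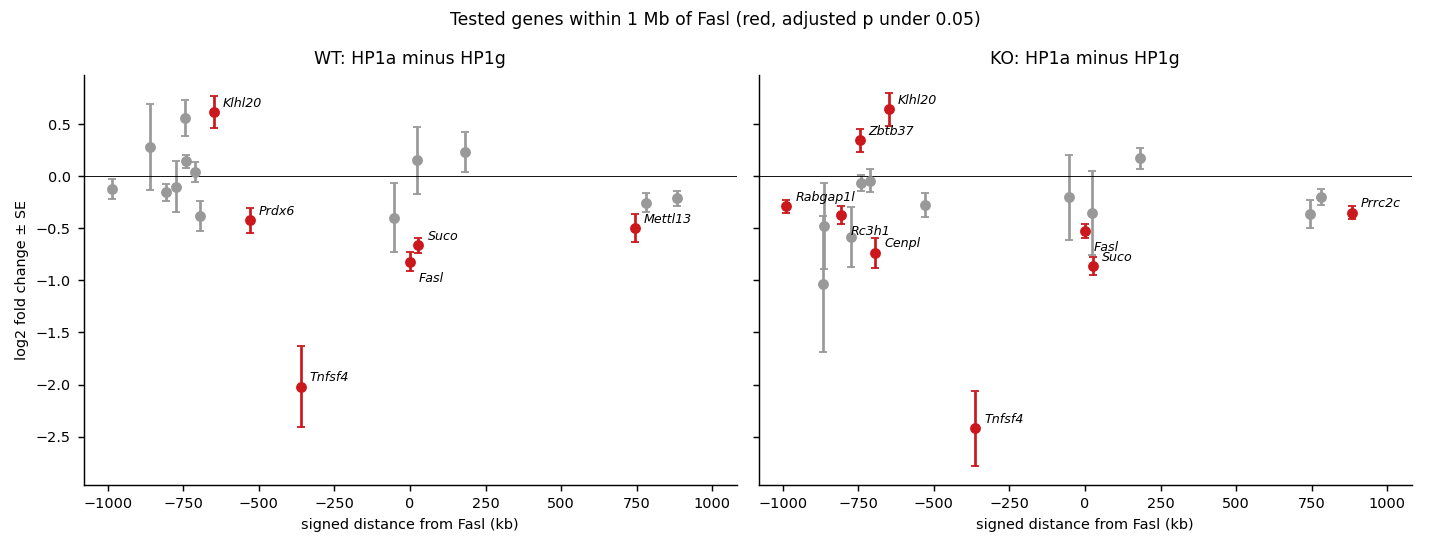
edgeR log2 fold change (HP1a minus HP1g, with SE) of the tested genes within 1 Mb of Fasl against their signed distance from it in kb, for WT (left) and KO (right), red where the adjusted p was under 0.05. Fasl and Suco, 27.6 kb apart, are both lower in the HP1a line in both panels, while Klhl20 is higher.

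Genes that act with the cytotoxic set were read from lists. Of 7 other granzymes, Gzmc and Gzmm were the 2 with enough counts to test, at 0.456 to 1.61 and 1.26 to 3.09 CPM, and neither passed in any comparison. Of 13 genes for granule biogenesis and release 12 could be tested, and 0 passed in HP1a KO and 0 in HP1g KO. Between the WT groups, where 12.8% of all genes were called, 2 of the 12 were lower in HP1a WT. Stx11, a syntaxin needed for granule fusion, had a log2 fold change of -0.82 (edgeR adjusted p = 0.0128). Srgn, the proteoglycan that packs granzymes, had -0.53 and passed only narrowly (edgeR adjusted p = 0.0495). Between the KO groups, where 32.8% of all genes were called, 4 were higher, among them Unc13d (0.31) and Stxbp2 (0.29), which prime and dock granules, and 4 were lower, among them Stx11 (-1.24) and Lyst (-0.55).

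Of the 16 regulators of the programme, 0 passed in HP1a KO and 0 in HP1g KO, where Id2 (-0.33, adjusted p = 0.251) and Eomes (-0.57, adjusted p = 0.332), both known to act in cytotoxic differentiation, had the smallest p. Between the WT groups, 5 of the 16 were lower in HP1a WT and 1 was higher, beside 8.25% of all genes lower and 12.8% called. Bhlhe40, a transcription factor of cytokine-producing T cells, was at 830 to 1045 CPM in HP1a WT and 1539 to 2025 CPM in HP1g WT (-1.01, SE 0.10), and Eomes was at 14.7 to 17.8 and 21.1 to 31.4 CPM (-0.68, SE 0.13). Nfil3 (-0.93), Prdm1 (-0.48) and, narrowly, Hopx (-0.29, edgeR adjusted p = 0.0485) were the other lower ones. Zbtb7b, which encodes the CD4 lineage factor ThPOK, was higher, also narrowly (0.50, SE 0.15, edgeR adjusted p = 0.0468). T-bet (Tbx21), at 95.6 to 136 CPM over all samples, and Runx3, at 188 to 267 CPM, which both activate cytotoxic genes, did not pass between the WT groups. Between the KO groups, 6 of the 16 were lower in HP1a KO and 2 were higher, beside 32.8% of all genes called. Bhlhe40 (-1.01), Nfil3 (-0.84), Prdm1 (-0.57) and Hopx (-0.27) were again lower and Zbtb7b (0.67) higher, while Eomes did not pass there.

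The list of 9 death ligands, death receptors with their signalling genes, and granzyme inhibitors gave 0 calls in either knockout. Casp8, the caspase downstream of Fas, was higher in HP1a WT than in HP1g WT (0.50, SE 0.08). It was the 1 gene of the 9 that passed there, near the 12.8% of all genes called. Between the KO groups, 3 of the 9 were higher in HP1a KO, namely Casp8 (0.39), Tnfsf10 (0.37) and Cflar (0.35). Serpinb9 (-0.63) was lower there, beside 32.8% of all genes called. Of the 6 other chemokines that could be tested, 2 were lower in HP1a WT. Xcl1, the ligand of XCR1, was at 37.0 to 50.8 CPM in HP1a WT and 58.4 to 117 CPM in HP1g WT (-0.96, SE 0.20). Cxcl10, the ligand of CXCR3, passed narrowly (-0.78, SE 0.23, edgeR adjusted p = 0.0474). Over all genes, 8.25% were called lower in HP1a WT.

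Marker lists of other cells were summed in each sample. In HP1a, all 11 sums overlapped between KO and WT, as they did in HP1g. The NK list summed to 106 to 132 CPM in HP1a KO, 89.2 to 121 in HP1a WT, 77.6 to 135 in HP1g KO and 85.8 to 122 in HP1g WT, and 6 of its 9 genes could be tested. Of these, Klrk1, which encodes the receptor NKG2D, was lower in HP1g KO (22.1 to 25.0 CPM) than in HP1g WT (32.0 to 41.3 CPM, log2 fold change -0.58, edgeR adjusted p = 0.0385). It was the 1 gene of the 6 that passed, beside 0.327% of all genes. The log2 fold changes were positive for 3 of the 6 and negative for 3, with a median of 0.03. The CD8 list of 2 genes summed to 5.09 to 18.5 CPM over the groups. Between the WT groups, the CD4 list was lower in HP1a WT (4264 to 4467 against 4513 to 4848 CPM) and the B cell list higher (393 to 567 against 308 to 368 CPM), each at the smallest p that 4 against 4 samples allow (exact permutation test, two-sided, p = 0.0286, 11 lists tested in each comparison, not adjusted). On summed TPM the CD4 list overlapped (p = 0.457, exact permutation test). Of its 8 genes, Cd28 (-0.60) and Cd44 (-0.35) passed as lower in HP1a WT, beside 8.25% of all genes. Of the NKT list, Zbtb16 was lower in HP1a WT (-0.57, edgeR adjusted p = 0.0316), while 3 of its 4 genes had positive values. In HP1g KO, all 4 NKT genes had negative log2 fold changes (median -0.33), and 0 passed. The B cell list was also higher in HP1a KO than in HP1g KO (p = 0.0286, exact permutation test). The part of these lists in the difference of Fasl was not tested.

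The last question was whether the genes varied together from sample to sample. Deviations of log2 CPM from the group mean were correlated over the 16 samples for the 45 pairs of genes, with a permutation test within groups. After adjustment 0 of 45 pairs passed, 7 had an unadjusted p under 0.05, and r was positive for 32 of 45 with a median of 0.20. Ccl3 and Ccl4, neighbours on chromosome 11, had the highest r, 0.72 (Spearman's rho 0.71, permutation p = 0.00228 and 0.00174, adjusted 0.103 and 0.0535), and 0.71 without the 2 samples farthest from the median of Ccl3. Within each group of 4 samples r lay between 0.72 and 0.89. Nkg7 and Ccl5 had an r of 0.70 (rho 0.66, permutation p = 0.0174 and 0.0183, adjusted 0.262 and 0.275), which was 0.51 without the 2 farthest samples. Gzmk and Fasl had the lowest r, -0.59 (rho -0.72, permutation p = 0.0123 and 0.00238, adjusted 0.262 and 0.0535), and r was negative in each of the 4 groups. Gzma and Gzmk, neighbours on chromosome 13, had an r of -0.33 (permutation p = 0.238, adjusted p = 0.609).

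**Figure D5:**
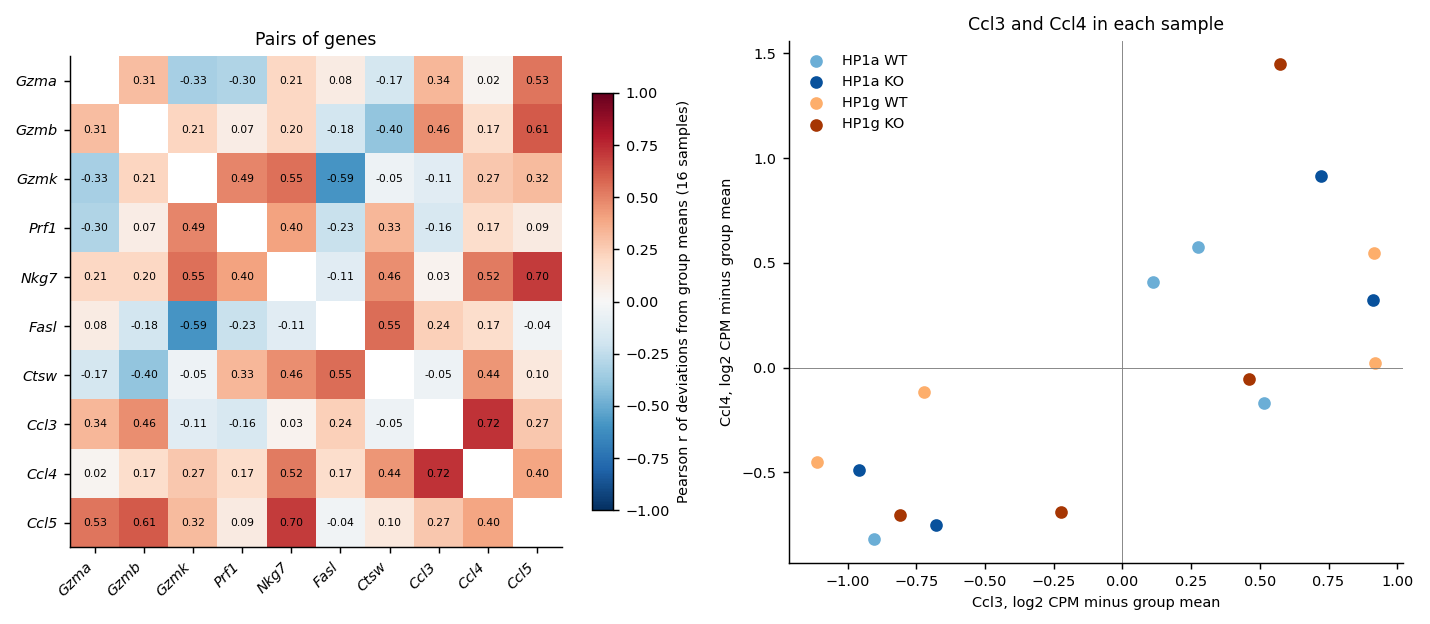
Left, Pearson r of every pair of the 10 genes over 16 samples, from deviations of log2 CPM from the group mean. Right, these deviations for Ccl3 and Ccl4 in each sample, coloured by group, where r was 0.72 and the adjusted permutation p was 0.103.

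The same deviations were set against the sums of the 11 marker lists. Of 110 pairs, 0 passed after adjustment and 18 had an unadjusted p under 0.05. The NK list had an r of 0.74 with Ccl4, 0.69 with Prf1 and 0.68 with Nkg7, Ccl3 had an r of 0.78 with the myeloid list and 0.68 with the B cell list, and Ccl4 had an r of 0.76 with the dendritic cell list (permutation p between 0.0015 and 0.00609, adjusted p = 0.0837 for each of the 6 pairs). HP1g KO replicate 4, the sample with the highest Ccl4, also had the highest Tyrobp (39.8 CPM, an adaptor of NK and myeloid cells). Tyrobp is on the NK list, whose Ncr1 was low as given above, so that the r of this list does not measure NK cells alone. Ccl5 and Gzmb had an r of 0.73 and 0.71 with the platelet and erythroid list, whose sum ranged from 18.1 to 1103 CPM. The CD8 list had an r of 0.73 with Ccl4 and 0.61 with Nkg7 (permutation p = 0.0171 and 0.0244, adjusted 0.171 and 0.199). Without the 2 samples farthest from the median of the CD8 list, each r was 0.38. The part of these cells in the spread of the chemokines was not tested.

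Of 15766 other genes, those most like the mean standardised deviation of the 10 genes were Carmil1 (r = 0.90), Alox5ap (0.90), Adam11 (0.89), Xlr (0.88), Tyrobp (0.88), Pld4 (0.88), Slamf9 (0.87), Pirb (0.87), Slc15a3 (0.87) and Spns3 (0.87), over 16 samples. Tyrobp was the 1 gene among them that stood on a marker list used here. These lists are short, and which cells express the other genes was not looked at. Taken singly, the gene most like Ccl3 was Marcks (0.95) and that most like Ccl5 was Entpd4b (0.91). Gzma was most like Plekhs1 (0.91), Gzmb like Mfap3 (0.92), Gzmk like Casp6 (0.90), Prf1 like Nckipsd (0.85) and Nkg7 like Sirt4 (0.89). Fasl was most like Lpl (0.88), Ctsw like Dync2i1 (0.87) and Ccl4 like Pkig (0.91). The nearest gene was in no case another of the 10. Each r was the highest over all genes kept by the filter, of which the 10 are few. High values and nearest genes outside the set could thus come from the search alone, and no level by chance was computed.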

How the data were processed

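RNA-seq was made from splenic memory CD4+ T cells with a stranded kit, and the 16 samples were grouped by title and genotype. A treatment label about transferred cells did not match this experiment and was left aside. The study excluded an HP1g RNA sample for poor quality, and whether it is among these samples could not be told.

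Per the labels and the study's methods, the authors used STAR and Salmon with GRCm39 and deposited estimated counts per gene without normalization, and TPM. Estimated counts were rounded and tested with R 4.3.3 and edgeR 4.0.16 (TMM, filterByExpr with a minimum count of 10, quasi-likelihood test, Benjamini-Hochberg adjustment over all genes). Each comparison was fitted on its own 8 samples, the interaction on 16. Correlations used log2 CPM (prior count 2) and 100000 two-sided permutations. Positions are from GENCODE, and shared sequence was searched with blastn 2.17.0.

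The members and lists were chosen with earlier results of these data known. One of the lists is not reported here. Named genes were taken from the members, list genes that passed (otherwise up to 3 with the smallest p) and the genes most like the members. Not every gene that this rule allows is named. Cbx5, Cbx3, single markers, Tbx21 and Runx3 between the WT groups and neighbours of Fasl were named outside this rule. The comparison of KO groups and the neighbours of Fasl were added after the data were seen. Alternatives used DESeq2 1.42.0, limma 3.58.1 on log2(TPM + 1) and log2(TPM + 0.1), other filters, scalings and fits, and each sample left out. On simulated counts with 200 changed genes (absolute log2 fold change 2), edgeR recovered 99.5% in the HP1a comparison (14631 genes) and 96.5% in the interaction. In the simulated HP1a comparison, unchanged genes made up 5.24% of the edgeR calls and 13.1% of the DESeq2 calls. Smaller changes were not simulated. The fitted changes of the members were smaller, so the share recovered does not show how often changes of their size would be missed.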

Additional observations from a re-analysis of the deposited data

Results flagged for a closer look

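Of 40 sets of 4 samples (10 genes in 4 groups), 4 held a sample that stood far from the other 3 by Dixon's ratio, where chance gives about 1 in 20. Gzma was at 13.3 CPM in HP1a WT replicate 3, against 2.65 to 2.84 CPM in the other samples of that group. Gzmk was at 15.7 CPM in HP1g WT replicate 3, against 4.92 to 6.69 CPM. Nkg7 was at 110 CPM (109.8) in HP1g KO replicate 4, against 85.5 to 88.2 CPM, and Ccl4 was at 9.34 CPM in the same sample, against 2.06 to 3.26 CPM. In HP1a WT replicate 3, Gzmk was at 8.60 CPM, inside the range of its group, so that Gzma stood apart without Gzmk. In HP1g KO replicate 4, Ccl3 (4.18 CPM), Ctsw (102 CPM) and Gzmk (6.57 CPM) were also the highest of their group, while Gzma, Gzmb, Prf1, Fasl and Ccl5 were not.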

How the results depend on the processing

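The number of members called was 0 in both knockouts and in the interaction and 1 (Fasl) between the WT groups under every alternative run, and the log2 fold change of Fasl between the WT groups lay between -0.89 and -0.77 with a sample left out. Between the KO groups limma gave 1 member on log2(TPM + 1) and 1 on log2(TPM + 0.1), against 3 by edgeR. Without removal of the group means, 8 pairs of a member and a marker sum passed, and the r of Fasl and Ctsw was -0.258. On summed TPM, 1 marker sum differed between groups, against 2. With a sample left out, 0 to 3 pairs of members and 0 to 2 pairs of a member and a marker sum passed.

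Some log2 fold changes of members that did not pass turned their sign, and the cause was not tested. On log2(TPM + 1) and log2(TPM + 0.1), they were 0.091 and 0.12 for Ccl3 and 0.0436 and 0.0436 for Ccl5 in HP1g, 0.0021 and 0.0037 for Prf1 between the WT groups, and -0.17 and -0.24 for Gzma and -0.13 and -0.16 for Ccl3 between the KO groups. With at least 10 counts in every sample, Nkg7 was at -0.00064 between the WT groups. With a sample left out, the ranges in HP1a were -1.11 to 0.48 for Gzma, -0.30 to 0.081 for Gzmb, -0.013 to 0.22 for Prf1, -0.093 to 0.023 for Nkg7 and -0.27 to 0.34 for Ccl4. In HP1g they were -0.40 to 0.19 for Ccl3, -0.25 to 0.75 for Ccl4 and -0.13 to 0.12 for Ccl5, and in the interaction -1.44 to 0.15 for Gzma, -0.18 to 0.50 for Gzmk and -0.79 to 0.38 for Ccl4. Between the WT groups they were -0.11 to 0.57 for Gzmk, -0.12 to 0.040 for Prf1, -0.11 to 0.097 for Nkg7 and -0.072 to 0.043 for Ctsw, and between the KO groups -0.46 to 0.46 for Gzma, -0.092 to 0.34 for Gzmb, -0.056 to 0.57 for Gzmk and -0.29 to 0.30 for Ccl3.

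The labels do not say that replicate numbers pair the samples. The correlation of same-numbered samples was between 0.094 and 0.228 in HP1a, over 0.1 in 3 of 4 pairs. In HP1g it was over 0.1 in 2 of 4. Differently numbered samples reached 0.180 in HP1a and 0.281 in HP1g. A pairing was thus possible but not established in either line. With the replicate block, 0, 0, 0 and 1 members passed in the HP1a, HP1g, interaction and WT comparisons, Ccl3 in HP1g was at 0.018, Gzma and Ccl3 between the KO groups were at -0.14 and -0.090, and 577 genes passed between the WT groups, against 1896. Over all genes, DESeq2 called 5, 253, 79 and 2835 in the HP1a, HP1g, interaction and WT comparisons, against 0, 49, 8 and 1896 by edgeR. In HP1g, 96 passed with all 16 samples in one fit, 31 with at least 10 counts in every sample, and 28 and 32 on limma. Between the WT groups, limma on log2(TPM + 1) called 250 higher and 925 lower, against 674 and 1222 by edgeR, and between the KO groups 1111 and 2357, against 2399 and 2522. The count over all genes between the WT groups was 573, 1101 and 1040 without HP1a WT replicates 1, 2 and 4 and 613 and 626 without HP1g WT replicates 1 and 2, and in HP1g it was 30 and 32 without HP1g KO replicates 1 and 2. The low counts of Gzma, Ccl3 and Ccl4, down to 36, limit what could be seen of them.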
